A study of Mus musculus with 2 samples.

Results

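The 38 genes described here mark endothelial cells, the lining of blood and lymph vessels, or act in the growth of new vessels. They were listed by name as endothelial identity, growth factor, receptor and Notch genes, and all 38 were measured among the 19938 genes that had a probe set with a single gene symbol. Expression was measured on Affymetrix Mouse Gene 1.0 ST arrays in white adipose tissue of mice 24 weeks old, after 20 weeks of high-fat diet. 1 array is labelled Oma1_WT (control mouse) and 1 is labelled Oma1_KO (Oma1-deficient mouse). Oma1 is a protease that sits in the inner membrane of mitochondria. The diet, age and tissue were shared, so lean fat was not part of the comparison. The labels name neither the fat depot, the strain, the sex, the kind of Oma1 mutation nor the number of mice behind an array. With 1 array per genotype there was no replicate check and no test, and the number of arrays limits every value below.

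Fat is rich in capillaries, which deliver fatty acids and insulin to adipocytes and widen or extend as fat grows. Adipocytes and stromal cells secrete vascular endothelial growth factors, which act on receptors carried mainly by the endothelium. Angiopoietins set the stability of the vessel wall through the receptors TEK and TIE1, and the Notch ligand DLL4 on sprouting cells restrains sprouting by their neighbours. Transcription factors of the ETS and SOX families keep the endothelial programme active.

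Values are probe set intensities, in the order Oma1_WT and Oma1_KO, and each difference is log2(intensity + 1) in Oma1_KO minus that in Oma1_WT. Most of the 38 genes were lower in the Oma1_KO array. In all, 32 were lower and 6 higher, with a median difference of -0.34 and a range from -0.65 to 0.34. Of all 19938 genes 47.9% were lower and 46.9% higher, with a median of 0.00. Above the intensity filter, a mean intensity of 83, 62.3% of 11399 genes were lower and 36.6% higher, with a median of -0.06. The filter was passed by 37 of the 38 genes, and 27 of the 38 were at or above the upper quartile, an intensity of 326, where 65.6% of all genes were lower. After quantile normalisation and after loess the counts of 32 and 6 held for the same genes, with medians of -0.31 and -0.29, while 52.5% of genes above the filter were lower after loess.

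**Figure D1:**
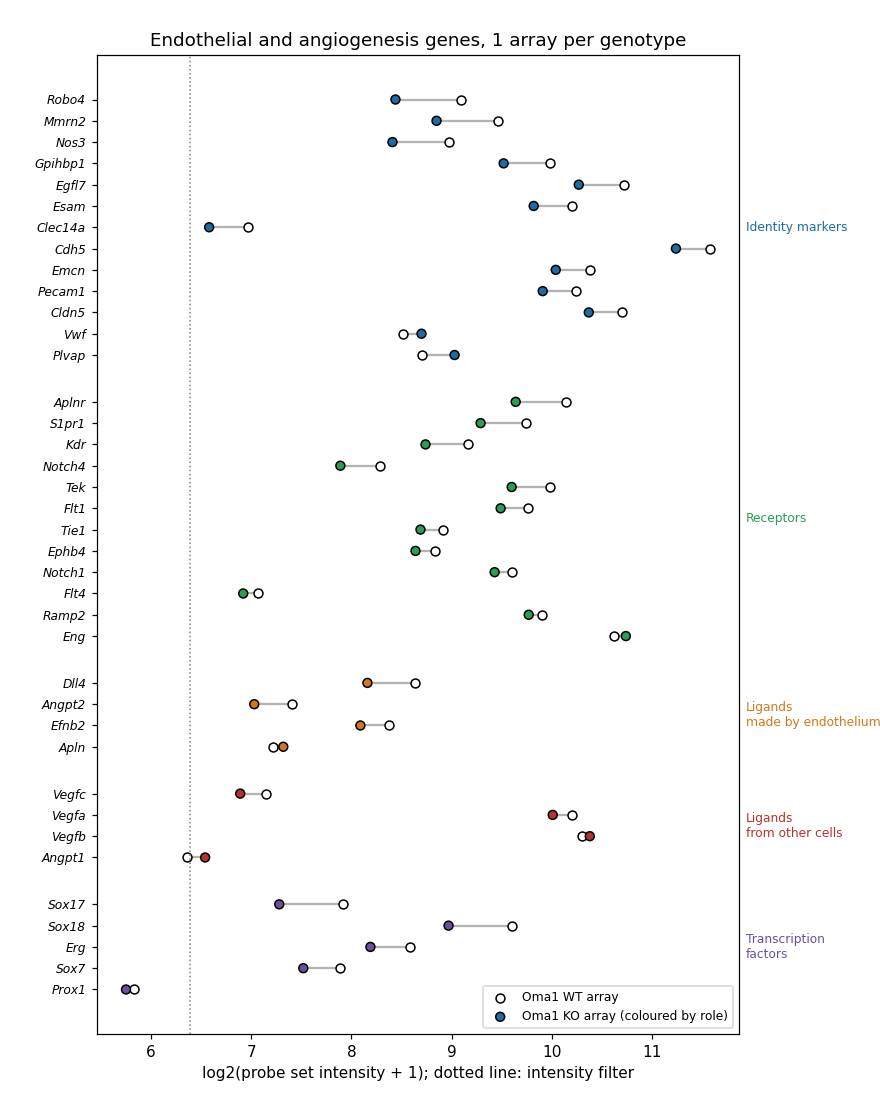
Probe set intensity of each of the 38 genes on a log2 scale, with the Oma1 WT array as an open point and the Oma1 KO array as a filled point coloured by role. For 32 genes the filled point lies to the left of the open one, and Prox1 lies left of the dotted intensity filter on both arrays.

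The differences were small. At least 1.5-fold lower were 4 of the 38 genes, Robo4, Mmrn2, Sox17 and Sox18, against 1.74% of genes above the filter and 1.38% of all genes. At least 1.5-fold higher were 0 of the 38, against 1.23% of genes above the filter. How far probe sets of one gene disagree was gauged on 545 genes above the filter that had exactly 2. The difference was compared between the 2 probe sets of each gene. This gave an SD of 0.17. That probe set SD says nothing of the spread between mice, or of error that all probe sets of an array share. By more than 0.17, 28 of the 38 genes were lower (27.5% of genes above the filter) and 3 were higher (13.5%). In white fat as a whole, fewer endothelial cells and less RNA per endothelial cell cannot be told apart.

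The identity markers come first. Cdh5, the adhesion protein of endothelial junctions, was the brightest of the 38 genes, at 3067 and 2425 (-0.34). Pecam1, another adhesion protein of the junction, read 1210 and 962 (-0.33). Both are defining markers and were far above the filter on each array, so endothelial RNA was present in the tissue of both genotypes. The tight junction claudin Cldn5 read 1663 and 1326 (-0.33). Esam, an adhesion molecule of tight junctions, read 1174 and 901 (-0.38), and the surface sialomucin Emcn read 1328 and 1050 (-0.34). The differences of these 5 genes of the cell surface and junction were close to each other, from -0.38 to -0.33.

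Robo4, a roundabout receptor of quiet endothelium, had the lowest difference of the markers, at 544 and 347 (-0.65). Only 135 of the 11399 genes above the filter had a lower one. Mmrn2, an extracellular matrix glycoprotein of vessels, read 704 and 462 (-0.61), and its binding partner Clec14a, a C-type lectin, read 124 and 95 (-0.38). Clec14a was the dimmest of the markers, and its value in the Oma1_KO array was close to the filter. Nos3, the endothelial nitric oxide synthase, read 501 and 339 (-0.56). Gpihbp1, which carries lipoprotein lipase to the capillary lumen, read 1008 and 735 (-0.46), and Egfl7, a secreted protein of the vessel matrix, read 1683 and 1232 (-0.45).

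A pair of markers went the other way. Plvap, which forms the diaphragms of fenestrae and caveolae, read 414 and 523 (0.34), and 519 genes above the filter had a higher difference. Vwf, the clotting factor stored in endothelial granules and in platelets, read 365 and 415 (0.18), about the size of the probe set SD. Thus 11 of 13 markers were lower and 2 higher, with a median of -0.38, and the direction of each held after quantile normalisation and loess, in which the differences of Plvap were 0.40 and 0.41. Of 5 measured platelet and megakaryocyte genes all 5 were higher, against 36.6% of genes above the filter, with a summed intensity of 1906 and 2359. Among them were the platelet chemokine Ppbp at 343 and 602 (0.81) and Pf4 at 1209 and 1330 (0.14). Gp9 at 89 and 127 (0.51) and Itga2b at 88 and 111 (0.33) were close to the filter in the Oma1_WT array. Treml1, at 177 and 189 (0.09), hardly differed. The part of platelets in the value of Vwf was not tested.

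**Figure D2:**
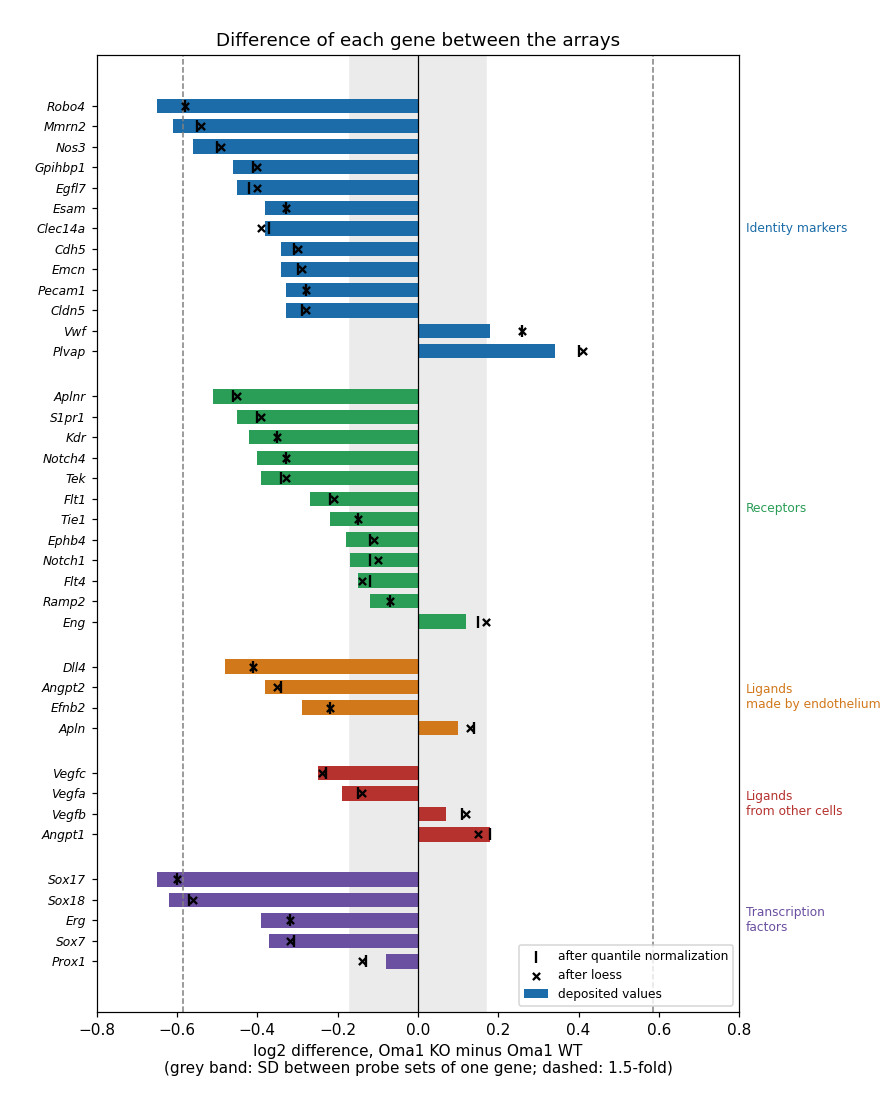
Difference of each of the 38 genes on the log2 scale (bars), by role, with the value after quantile normalisation (vertical ticks) and loess (crosses). Bars of Robo4, Mmrn2, Sox17 and Sox18 pass the dashed line at 1.5-fold, while after either scaling only Sox17 does, and Plvap has the longest bar on the right.

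All but 1 of the receptors were lower. Kdr, the main signalling receptor for VEGFA, read 570 and 427 (-0.42). Flt1, which binds VEGFA and VEGFB and in part acts as a trap for them, read 869 and 720 (-0.27). Flt4, the receptor for VEGFC and a marker of lymphatic vessels, read 133 and 120 (-0.15). The 3 receptors of this family were thus all lower, but Flt4 was dim and its difference was under the probe set SD.

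Tek, the receptor for angiopoietins, read 1012 and 774 (-0.39), and its partner Tie1 read 480 and 412 (-0.22). Aplnr, the receptor for apelin, had the lowest difference of the receptors, at 1130 and 795 (-0.51). S1pr1, a receptor for sphingosine 1-phosphate that stabilises junctions, read 854 and 624 (-0.45). Ramp2, which makes the adrenomedullin receptor out of its partner Calcrl, read 952 and 874 (-0.12). Eng, a co-receptor for bone morphogenetic proteins, was the single receptor that was higher, at 1572 and 1714 (0.12), a difference under the probe set SD. Of the 12 receptors 11 were lower, 8 of them by more than the probe set SD, with a median of -0.25 that was -0.18 after quantile normalisation and after loess.

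Among the receptors that bind ligands held on neighbouring cells, Notch4, the Notch receptor most restricted to endothelium, read 311 and 236 (-0.40). Notch1, which many cell types carry, read 776 and 691 (-0.17). Ephb4, the venous receptor for ephrin B2, read 453 and 399 (-0.18). Notch4 therefore stood with Kdr and Tek, while Notch1 and Ephb4 differed by about the probe set SD.

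Of the 4 ligands that endothelial cells make themselves, 3 were lower. Dll4, the Notch ligand of arteries and sprouting cells, read 399 and 285 (-0.48). Angpt2, which opposes angiopoietin 1 and loosens vessels, read 169 and 130 (-0.38). Efnb2, the arterial partner of Ephb4, read 331 and 271 (-0.29). Apln, which encodes apelin and is made by sprouting cells and by adipocytes, went the other way at 148 and 159 (0.10). The median of the 4 was -0.33, and -0.28 after quantile normalisation and after loess.

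The ligands that come mainly from other cells were split. Vegfa, secreted by adipocytes and stromal cells, read 1177 and 1029 (-0.19). Vegfb, abundant in fat and other tissues that burn or store lipid, read 1262 and 1329 (0.07). Vegfc, the lymphatic growth factor, read 141 and 118 (-0.25). Angpt1, made by mural and stromal cells, read 81 and 92 (0.18), but it was dim and below the filter intensity in the Oma1_WT array. So 2 of these 4 were lower and 2 higher, with a median of -0.06, the same as for all genes above the filter.

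The 25 markers and receptors had a median of -0.34, so that their median lay 0.28 below that of the ligands from other cells, a gap coded as -0.28. It was -0.30 after quantile normalisation and -0.29 after loess, and -0.15 when Angpt1 was left out because its wild-type value was below the filter. As sums, the markers read 13785 and 10812, the receptors 9112 and 7786, and the ligands from other cells 2661 and 2568. The ratio of the Oma1_KO sum to the Oma1_WT sum was 0.784, 0.854 and 0.965 in that order. Bright genes weigh most in such sums, as Cdh5 does among the markers and Vegfa and Vegfb among the ligands from other cells. Vegfd and Pgf, further ligands of the VEGF family, were not among these 4. Vegfd was bright and lower, at 1264 and 959 (-0.40). Pgf was close to the filter and hardly differed, at 88 and 89 (0.02). Adding Vegfd to the ligands would make the gap narrower, so its size depends on which ligands were listed. With 4 ligands and 1 array per genotype this gap is a description of the arrays and was not tested.

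The gap between a ligand and its receptor varied from pair to pair. The difference of Vegfa was 0.22 above that of Kdr and 0.08 above that of Flt1, and that of Vegfb was 0.35 above that of Flt1. For Vegfc and Flt4 the ligand was the lower one, with a gap of -0.11, and the same held for Efnb2 and Ephb4, with a gap of -0.10. The widest gaps were those of Apln, 0.61 above its receptor Aplnr, and of Angpt1, 0.57 above Tek. Both ligands were dim, Apln at 148 and 159 and Angpt1 at 81 and 92, which limits these gaps. Angpt2 and Tek were 0.01 apart, and the difference of Angpt2 minus that of Angpt1 was -0.56. The difference of Dll4 was below those of its receptors, with gaps of -0.32 to Notch1 and -0.09 to Notch4. These are gaps between differences, since intensities of different probe sets cannot be set against each other.

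The 5 transcription factors among the 38 genes were all lower. Other endothelial transcription factors, given below, went both ways. Sox17, which specifies arterial endothelium, read 242 and 154 (-0.65). Sox18, a factor of blood and lymphatic vessel formation, read 773 and 501 (-0.62), and Sox7, the third member of this SOX subgroup, read 236 and 182 (-0.37). Erg, an ETS factor that maintains endothelial junction genes, read 384 and 292 (-0.39). All 5 factors were lower, with a median of -0.39, and their summed intensity of 1691 and 1182 gave a ratio of 0.699. Sox17 was the only one of the 38 genes at least 1.5-fold lower after quantile normalisation and after loess, at -0.60 in each, where 1.35% of genes above the filter were after loess. Prox1, which sets lymphatic identity, read 56 and 53 (-0.08) and was below the filter on both arrays.

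**Figure D3:**
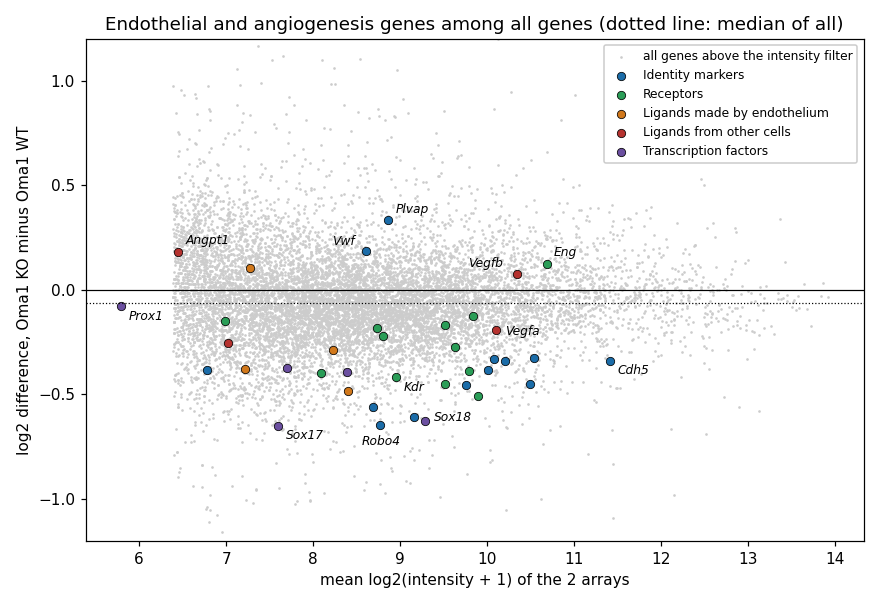
Difference of each gene against its mean log2 intensity, for the 38 genes (coloured by role) and all 11399 genes above the intensity filter (grey). Most coloured points lie below the dotted median of -0.06, and 36 grey points beyond a difference of 1.2 in size lie outside the plot.

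The sequence before the gene start was compared for 22 of the 38 genes, for which RefSeq windows of build GRCm38.p6 were at hand, 28 windows in all. The 250 bases before the start are shown for the 3 genes with the lowest differences among the 18 with a single window, Robo4 at chr9:37401722-37401971 (plus strand), Dll4 at chr2:119325534-119325783 (plus strand) and Kdr at chr5:75978456-75978705 (minus strand). Eng at chr2:32646345-32646594 (plus strand), which had the highest difference among the 18, is shown for contrast. Each is written 5′ to 3′ on the strand of the gene, and capitals mark matches on either strand to any of 3 ETS motifs. They are AGGAAG, a close variant that reads CGGAAG, and the shifted form CAGGAA, which overlaps AGGAAG by all but its first base.
Robo4: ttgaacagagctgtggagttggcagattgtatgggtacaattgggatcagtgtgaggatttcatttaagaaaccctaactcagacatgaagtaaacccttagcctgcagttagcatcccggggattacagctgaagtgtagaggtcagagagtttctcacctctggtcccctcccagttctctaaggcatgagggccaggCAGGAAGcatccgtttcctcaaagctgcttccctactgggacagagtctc
Dll4: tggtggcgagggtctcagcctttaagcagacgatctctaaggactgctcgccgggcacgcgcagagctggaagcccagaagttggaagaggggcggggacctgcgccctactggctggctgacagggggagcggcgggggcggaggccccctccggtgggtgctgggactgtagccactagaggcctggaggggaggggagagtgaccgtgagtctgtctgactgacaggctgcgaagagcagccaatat
Kdr: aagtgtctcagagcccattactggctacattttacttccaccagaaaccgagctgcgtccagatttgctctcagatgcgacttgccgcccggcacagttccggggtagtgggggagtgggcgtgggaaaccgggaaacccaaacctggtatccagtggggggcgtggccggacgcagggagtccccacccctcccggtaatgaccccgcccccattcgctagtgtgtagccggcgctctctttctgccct
Eng: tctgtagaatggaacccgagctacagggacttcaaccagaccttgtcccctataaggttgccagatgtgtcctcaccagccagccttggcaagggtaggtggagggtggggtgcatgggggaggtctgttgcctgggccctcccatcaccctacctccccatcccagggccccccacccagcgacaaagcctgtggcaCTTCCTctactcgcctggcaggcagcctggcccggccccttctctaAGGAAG

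The Robo4 window held 1 run in which AGGAAG overlaps the shifted form, and the Eng window held AGGAAG once on each strand. The Kdr and Dll4 windows held 0 exact matches to the 3 ETS motifs. Whether matches go with the differences was not tested, and the difference of Eng was under the probe set SD. Of the 28 windows, 35.7% held AGGAAG against 29.5% of all 32851 windows, 42.9% held CAGGAA against 25.7%, and 3.57% held CGGAAG against 13.6%. The SOX motif ACAAT was in 21.4% against 27.7%, and TGGGAA, the core bound by the Notch effector RBPJ, was in 25% against 21.6%. Both strands were searched, and a match is a description of the letters and not evidence of a bound site.

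A second list of endothelial genes, none of them among the 38, differed much less. Of 25 measured, 16 were lower and 9 higher, with a median of -0.10, and 15 were lower after quantile normalisation and after loess, with a median of -0.05. That share of lower genes is near the 62.3% among all genes above the filter, so it is no result about the list. Mcam, an adhesion molecule of endothelium and mural cells, read 3474 and 2186 (-0.67), and Myct1, a membrane protein of endothelium, read 229 and 146 (-0.65). Exoc3l2 read 72 and 105 (0.54), but it was below the filter intensity in the Oma1_WT array and passed through the Oma1_KO array. Ptprb, a phosphatase that restrains TEK, read 1515 and 1115 (-0.44). The markers Cd93 and Cd34 hardly differed, at 2219 and 2089 (-0.09) and 2857 and 2738 (-0.06). Aqp1, a water channel of capillaries, was higher at 2366 and 3059 (0.37). The transcription factors of this second list went both ways. Ets1 (-0.38), Gata2 (-0.17), Hhex (-0.17) and Fli1 (-0.11) were lower. Lyl1 (0.34), Tal1 (0.11) and Klf2 (0.09) were higher, and the difference of Klf4 was 0.00.

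Of 15 other measured genes of the Notch pathway, 12 were lower and 3 higher, where 62.3% of all genes above the filter were lower. Their median was -0.24, and -0.18 after either scaling, in which 12 were again lower and, after loess, 52.5% of all genes above the filter were. Nrarp, a feedback inhibitor induced by Notch, had the lowest difference, at 212 and 105 (-1.01), and only 26 genes above the filter had a lower one. The glycosyltransferase Mfng read 1487 and 1144 (-0.38), and Jag2, another Notch ligand, 197 and 156 (-0.33). Another glycosyltransferase, Lfng, was higher at 834 and 963 (0.21), as was the protease Adam17 at 720 and 776 (0.11). Notch3, the Notch receptor of mural cells, read 421 and 337 (-0.32). The downstream repressors Heyl, Hes1 and Hey1 read 228 and 188 (-0.28), 191 and 162 (-0.24), and 315 and 283 (-0.15). Rbpj itself was higher, with a mean difference of 0.32 over 2 probe sets. By its brighter probe set alone it was higher by no more than the probe set SD of 0.17, so the 2 probe sets did not read alike.

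The rest of the VEGF pathway did not share a direction. Of 14 genes 7 were lower, 6 higher and 1 equal, with a median of -0.02. Vegfd, a ligand of Flt4, read 1264 and 959 (-0.40), and Plcg1, the phospholipase downstream of Kdr, read 889 and 705 (-0.33). The co-receptors Nrp1 and Nrp2 read 1788 and 1614 (-0.15) and 597 and 660 (0.14). Among 16 genes of the hypoxia response, which controls Vegfa, 11 were lower and 5 higher, with a median of -0.04. That is near the 62.3% of all genes above the filter, and 9 were lower after quantile normalisation, 8 after loess and 6 after centring on the genes above the filter. Hif1a and Epas1, its transcription factors, read 2239 and 2181 (-0.04) and 3048 and 2872 (-0.09), and Bnip3, a hypoxia-induced mitochondrial protein, had a mean difference of -0.47 over 2 probe sets. Vhl, which marks hypoxia factors for breakdown, read 745 and 548 (-0.44).

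By vessel type the lists were short and their medians close to 0, with 62.3% of all genes above the filter lower for comparison. Of 7 arterial genes 6 were lower (median -0.14), as after quantile normalisation and loess, but 4 after centring on the genes above the filter. Gja5, a connexin of arteries, read 210 and 136 (-0.62). Of 6 genes of venous and activated endothelium 2 were lower and 4 higher (median 0.03), with the chemokine receptor Ackr1 at 356 and 292 (-0.29) and the adhesion molecule Vcam1 at 383 and 453 (0.24). Of 6 lymphatic genes 3 were lower, 2 higher and 1 equal (median -0.03), and Lyve1, which macrophages also carry, read 929 and 737 (-0.33). The tip cell list had a median of 0.01 over 7 genes, and its defining gene Esm1 was below the filter at 31 and 34. Of 9 genes of lipid uptake in fat capillaries 7 were lower and 0 reached 1.5-fold (median -0.08). Of these the fatty acid binding protein Fabp5 had a mean difference of -0.27 over 2 probe sets. The fatty acid transporter Cd36 read 9760 and 9333 (-0.06) and the capillary carbonic anhydrase Car4 1216 and 1017 (-0.26), but Cd36, Lpl and Fabp4 are also adipocyte genes.

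**Figure D4:**
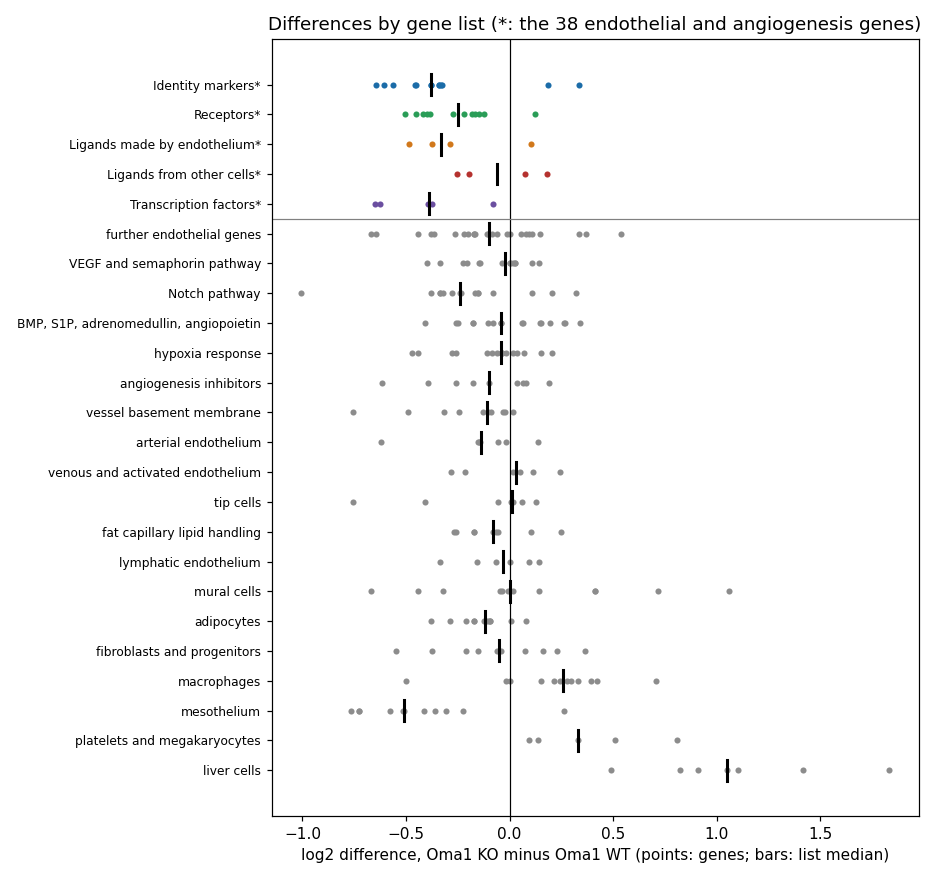
Difference of every measured gene (points) with the median of its list (bars), for the 5 roles of the 38 genes above the grey line and 19 other lists below it. The median of further endothelial genes lies at -0.10, that of mesothelium at -0.51 and that of liver cells at 1.05.

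Markers of several other cell types differed between the arrays as well. For comparison, 62.3% of all genes above the filter were lower and 36.6% higher. All 12 macrophage markers were well above the filter, with the dimmest at 298 and 400. Of them 10 were higher (median 0.26), and their summed intensity was 33698 and 39346. The immunoglobulin receptor Fcgr1 read 308 and 503 (0.71), while Mertk, a receptor for the uptake of dead cells, read 664 and 470 (-0.50). Of 11 mesothelial markers 10 were lower (median -0.51, summed intensity 3133 and 2205), more than the 38 genes in their median, with the defining marker Upk3b at 773 and 455 (-0.76). All 7 measured liver markers were higher (median 1.05, summed intensity 3527 and 8361), with Alb, which encodes albumin, at 1692 and 4523 (1.42). Of 12 adipocyte genes 10 were lower (median -0.12, summed intensity 75193 and 67250), among them Adipoq, which encodes adiponectin, at 6832 and 5255 (-0.38). All 12 lay at or above the upper quartile, where 65.6% of all genes were lower. Of 10 fibroblast and progenitor genes 6 were lower (median -0.05, summed intensity 20735 and 20396). That is near the share of all genes above the filter, so it is no result about the list. In it, Dpp4 read 529 and 362 (-0.55) and the proteoglycan Lum 1512 and 1947 (0.36). Mural cell genes were split, 6 lower and 6 higher (median 0.00, summed intensity 12383 and 11444), and after quantile normalisation and after loess 3 were lower and 9 higher (median 0.06). The contractile protein Cnn1 read 96 and 201 (1.06) and the proteoglycan Cspg4 359 and 591 (0.72). Abcc9, a potassium channel subunit of pericytes, read 743 and 547 (-0.44), and Mcam and Notch3, given above, were lower too. Rgs5, a pericyte marker, read 980 and 948 (-0.05). The part of such cells in the differences of the 38 genes was not tested. Oma1 itself read 187 and 155 (-0.27), which does not check the genotype, because the deleted part of the gene is not given in the labels.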

How the data were processed

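White adipose tissue RNA was measured on 2 arrays, 1 per genotype. Per the labels, RNA was extracted with Trizol and labelled with biotin. The authors deposited probe set intensities, linear and in whole numbers, from 8 to 21216 in Oma1_WT and from 8 to 21365 in Oma1_KO, with a median of 83 in each. How they were background-corrected and scaled is not given in the sources used.

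Of 35512 probe sets, 21789 carried a single symbol in GEO's platform annotation and named 19938 genes. Those with several symbols (1621, of which 7 name one of the 38 genes) or none (12102) were left out. Each of the 38 genes had 1 probe set, and its gene identifier matched the RefSeq table of GRCm38.p6. Log2 values were taken with a pseudocount of 1, so that differences of dim genes are understated, and probe sets of a gene were averaged. The filter (mean log2 value not under the median probe set's) kept 11399 genes (57.2%). No test or p-value is given. A fixed size of 1.5-fold was used.

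The 38 genes, their roles and the 19 other lists were chosen with earlier results of these data known, as were the motifs. Lists share some genes. The rule for named genes took all 38 and, of each other list, up to 4 genes above the filter with the largest absolute difference, with defining markers of each cell type. Not every gene it allows is printed. Cd93, Cd34, Aqp1, Rbpj, Heyl, Hes1, Hey1, Nrp1, Nrp2, Hif1a, Epas1 and Cd36 were named outside this rule, after their values were seen. The same holds for Ets1, Gata2, Hhex, Fli1, Lyl1, Tal1, Klf2, Klf4, Lfng, Adam17, Treml1 and Pgf. Alternatives were quantile normalisation, loess (span 0.3), centring, the brightest probe set, a pseudocount of 16 and intensity filters. The procedure was run on simulated data in which the planted differences were larger than those of the 38 genes, so differences of their size were not examined. Python 3.11.15, numpy 2.4.6, pandas 2.3.3, statsmodels 0.14.6 and matplotlib 3.10.9 were used.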

Additional observations from a re-analysis of the deposited data

How the results depend on the processing

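The count of 4 genes at least 1.5-fold lower became 1 after quantile normalisation (Sox17), 1 after loess (Sox17) and 2 after centring on the genes above the filter (Robo4 and Sox17). These scalings moved the median of genes above the filter by 0.05 or 0.06, and the 4 genes lay close to the threshold. The medians of roles and lists moved by less than 0.17, the probe set SD, under every alternative tried. None of the 38 genes changed direction under another scaling or pseudocount. Each of the 38 had 1 probe set, so taking the brightest probe set could not change their values. No paired analysis was possible because each genotype had 1 array, and for the same reason no array could be left out. Dim genes limit the precision, since Prox1 was below the filter and Angpt1, Clec14a, Flt4 and Vegfc lay not far above it.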

Other observations

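The vessel basement membrane, which endothelial and mural cells lay down together, was lower in 9 of 10 genes, with a median of -0.11 and a summed intensity of 19097 and 17181. Of all genes at or above the upper quartile, where these 10 lie, 65.6% were lower, and the count became 8 after quantile normalisation and 7 after loess and after centring, so it is no result about the list. Nid2, a nidogen that links laminin to collagen, read 733 and 433 (-0.76), and 86 genes above the filter had a lower difference. The collagen IV chains Col4a2 and Col4a1 read 1610 and 1147 (-0.49) and 1368 and 1098 (-0.32), and the heparan sulfate proteoglycan Hspg2 read 2720 and 2295 (-0.25). The laminin chains Lamb1 and Lamc1, at 848 and 830 (-0.03) and 2472 and 2504 (0.02), hardly differed. Those laminins and Nid1 are outside the rule for named genes and were chosen after their values were seen, with Nid1 at 4450 and 4147 (-0.10).

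Of 17 genes of bone morphogenetic protein, sphingosine 1-phosphate, adrenomedullin and angiopoietin signalling, 9 were lower and 8 higher, with a median of -0.04. Adm, which encodes adrenomedullin, read 325 and 245 (-0.41), while Id3, a target of bone morphogenetic protein signalling, read 474 and 570 (0.27). Angptl4, an inhibitor of lipoprotein lipase, read 3533 and 4235 (0.26). Among 9 angiogenesis inhibitors 5 were lower and 4 higher (median -0.10), with the signalling inhibitors Spry4 and Spry2 at 537 and 350 (-0.62) and 174 and 132 (-0.40).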
